A study of Mus musculus with 23 samples.

Results

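Lysosomal enzymes and membrane proteins were followed in the F9 line, which derives from a mouse teratocarcinoma and takes on features of extraembryonic endoderm under retinoic acid. The 38 genes were chosen by symbol as well-known lysosomal hydrolases, their cofactors, membrane proteins, proton pump subunits and the factor Tfeb, and all 38 were found among the 36814 genes of the count tables. The F9 cells were untreated at 0 h (4 mRNA libraries), or were given RA (all-trans retinoic acid, final concentration 1e-07 M) for 6, 12, 24 or 48 h (2 libraries each) or 0.001% dimethyl sulfoxide (DMSO), the solvent, for 24 or 48 h (1 library each). F9 is a single cultured line, the cells were grown as bulk cultures, and no label says whether libraries of a group came from separate cultures, so a p-value measures only the spread between these libraries. Receptor ChIP was not used here.

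The lysosome is an acidic organelle in which proteases, glycosidases, sulfatases and lipases break down material brought in by endocytosis and autophagy. A vacuolar proton pump keeps it acidic, heavily glycosylated proteins line its membrane, and most of its soluble enzymes are carried there by mannose 6-phosphate receptors. Tfeb and its relatives Tfe3, Mitf and Tfec are transcription factors that bind an E-box, CACGTG, found near the start of many lysosomal genes, where the wider form is called the CLEAR element. Extraembryonic endoderm, the tissue F9 cells turn toward, is known for intense uptake and digestion of maternal proteins.

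The promoter sequences are shown because CACGTG, the box that Tfeb and its relatives bind, recurs near the start of some members that encode unrelated proteins. Its part in the changes was not tested. Promoter windows of 300 bases, from 250 bases before to 50 after the RefSeq start on build GRCm38.p6, were matched by symbol for 33 of the 38 genes (not for Asah1, Atp6v1h, Ctsb, Ctsh and Npc1). CACGTG, which reads the same on both strands, stood in 10 of the 33 windows (30.3%), against 8.09% of 27025 genes in the same table. The longer palindrome TCACGTGA, which contains it, stood in 5 of the 33 (15.2%) against 1.12% of all genes. That palindrome with a further G before it and C after it stood in 0 of the 33 (0.0%) against 0.37% of all genes. This last form is so rare that 0 of 33 windows cannot show a lower share than among all genes. A match of letters is a description and not a binding site. Excerpts of 30 bases around 1 CACGTG per gene, in capitals, follow 5′ to 3′ on the strand of the gene. The windows of Ctsa, Ctsd, Mcoln1 and Gla each hold 2 copies, of which 1 is shown. Lamp1 held 4 copies in a short stretch before its start and is given as that stretch (chr8:13159092-13159159, plus strand).
Lamp1: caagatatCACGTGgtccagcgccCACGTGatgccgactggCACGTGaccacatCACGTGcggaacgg
The 5 genes with TCACGTGA were the proteases Ctsa (chr2:164833766-164833795, plus strand) and Ctsd (chr7:142387908-142387937, minus strand), the cation channel Mcoln1 (chr8:3500462-3500491, plus strand), the pump subunit Atp6v0d1 (chr8:105566050-105566079, minus strand) and the glycosidase Gla (chrX:134601182-134601211, minus strand).
Ctsa: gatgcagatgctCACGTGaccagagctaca
Ctsd: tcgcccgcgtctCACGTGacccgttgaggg
Mcoln1: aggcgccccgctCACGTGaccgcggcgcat
Atp6v0d1: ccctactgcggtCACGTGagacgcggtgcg
Gla: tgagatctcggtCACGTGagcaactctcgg
The other 4 genes held the shorter box with other flanking letters, namely Glb1 (chr9:114401018-114401047, plus strand), Naglu (chr11:101070009-101070038, plus strand), Gaa (chr11:119267811-119267840, plus strand) and Ctsl (chr13:64370739-64370768, minus strand).
Glb1: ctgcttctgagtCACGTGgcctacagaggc
Naglu: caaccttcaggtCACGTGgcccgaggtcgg
Gaa: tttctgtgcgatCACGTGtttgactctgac
Ctsl: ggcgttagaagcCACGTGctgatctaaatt

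The 14 mRNA libraries held between 7.079 and 10.95 M reads on genes. They fell into 2 sets by the share of reads that lay on no annotated gene, 57.3 to 59.43% in set 1 and 52.51 to 53.77% in set 2. Set 1 consisted of the 2 DMSO libraries and the libraries numbered 1 at 0 h and after RA, and set 2 held all others. Levels are CPM, a gene's count relative to the library's total on genes, scaled by TMM, and changes are on the log2 scale, each with its approximate SE, from 1 edgeR fit of all 14 libraries with the set as a term. A gene was called at a Benjamini-Hochberg adjusted p under 0.05 over the 16155 genes tested. Levels of different genes are not compared, because transcript length is not accounted for. Of the 38 members 37 were tested. The remaining gene, Ctss, a cysteine protease best known from antigen-presenting cells, had 0 counts in all 14 libraries, which allows up to 0.25 to 0.451 CPM per library by a floor of 3 counts. Pluripotency markers of the labelled cell type were abundant, with 7 genes summing to 4270 to 5660 CPM at 0 h and 1310 to 2120 CPM after 48 h of RA. The 8 endoderm markers summed to 561 to 875 CPM at 0 h and 4320 to 5890 CPM at 48 h. Most of the 0 h sum was Sparc (mean 531 CPM). Gata6, Sox17, Foxa2 and Dab2 averaged 1.93, 0.51, 0.30 and 5.59 CPM at 0 h.

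The main change came late. After 48 h of RA 30 of the 37 tested members were higher than at 0 h (81.1%), 1 was lower and 6 were not called, where 48.8% of all tested genes were called, 25.8% higher and 22.9% lower. The median log2 change of the members was 0.93 against 0.02 over all tested genes. At 6 h 2 members rose (5.41%) and 0 fell, where 5.61% of all genes were called, 4.1% higher and 1.51% lower, and the median change was 0.05. At 12 h 1 rose (2.7%) and 4 fell, where 12.7% of all genes were called, 7.38% higher and 5.31% lower, and the median was -0.002. At 24 h 10 rose (27.0%) and 5 fell, where 29% of all genes were called, 15.5% higher and 13.5% lower, and the median was 0.17. Without the set term 8 members were called at 24 h instead of 15. Of the 30 genes higher at 48 h, 10 were already higher at 24 h, 18 were not called at 24 h and 2 were lower at 24 h. The tested step from 24 to 48 h was called higher for 24 members and lower for 0, where 11% of all genes were called, 6.4% higher and 4.62% lower. That step depended on the set term, without which 2 members were called, and on replicate 1 of 48 h, without which 8 were. In bulk RNA, a change in the number of cells of a type and a change in RNA per cell cannot be told apart.

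**Figure D1:**
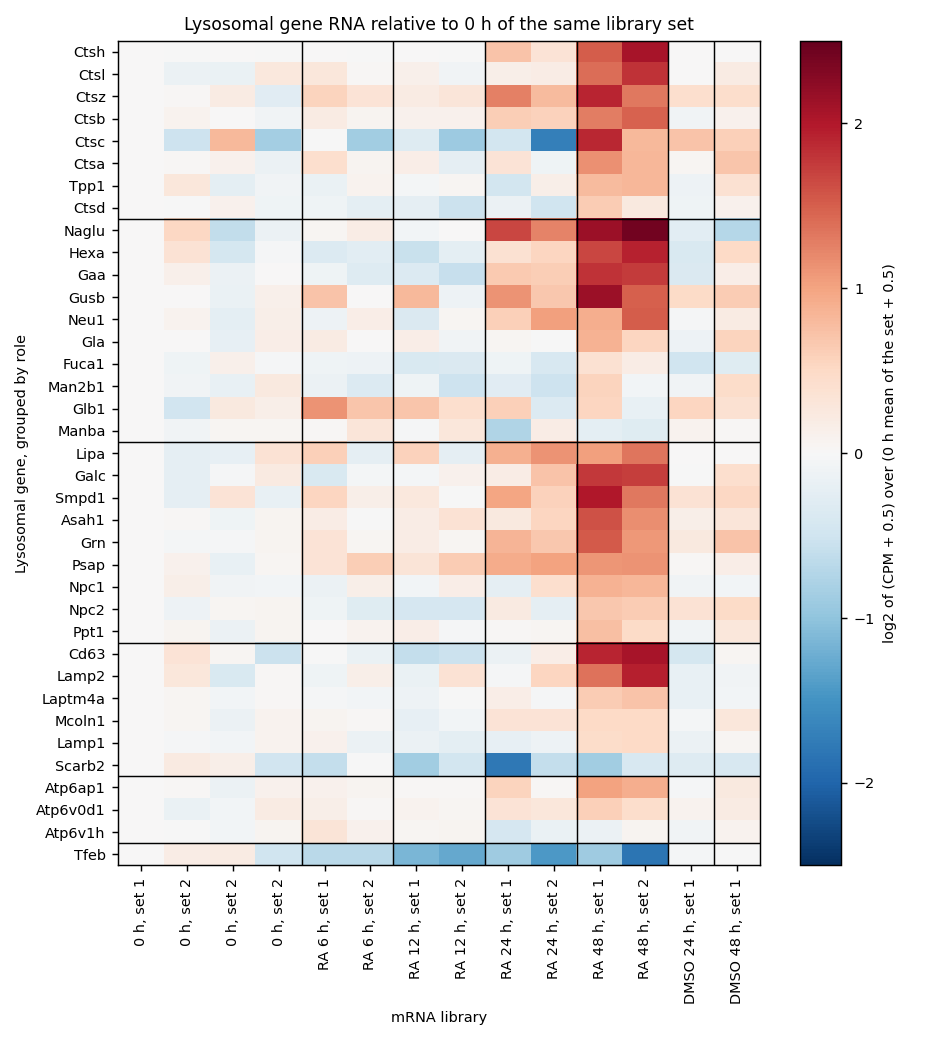
Heat map of RNA levels of the 37 tested lysosomal genes (rows, grouped by role) in the 14 mRNA libraries (columns), as log2 of CPM plus 0.5 over the 0 h mean of the same library set plus 0.5, red for higher and blue for lower. Most rows turn red at 48 h of RA, Tfeb turns blue from 6 h on, and the DMSO columns are mostly pale. Set 1 has 1 library at 0 h, so that column is white by construction.

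All 8 proteases that were tested rose at 48 h, with log2 changes from 0.38 to 4.24, although 2 of them had been called lower at 24 h. Ctsl, a cysteine protease that also processes other proteins in the endosome, stood at 392.5, 255.7, 251.3 and 337 CPM in replicates 1 to 4 of 0 h, at 437 and 318 CPM after 24 h and at 1030 and 984 CPM after 48 h. Both 48 h libraries lay far above every other library, while those of 24 h overlapped the 0 h range. The change was 0.16 ± 0.15 (SE) at 24 h (adjusted p = 0.459) and 1.61 ± 0.15 at 48 h (adjusted p = 1.36e-06). Ctsb, a broadly expressed cysteine protease, moved in steps, from 119 to 175 CPM at 0 h to 268 and 188 CPM at 24 h and 426.5 and 352.5 CPM at 48 h. It had risen by 0.59 ± 0.11 at 24 h (adjusted p = 0.00131) and by 1.38 ± 0.11 at 48 h (adjusted p = 3.22e-07), and neither time overlapped 0 h.

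Ctsz, another cysteine protease, also rose at both times, by 0.98 ± 0.17 and 1.57 ± 0.17. Ctsa, a carboxypeptidase that protects Glb1 and Neu1 in a complex, and Tpp1, a tripeptidyl peptidase, rose at 48 h alone among the RA times, by 0.91 ± 0.13 and 0.87 ± 0.16. Ctsd, the main aspartic protease, first went down and then up. Its levels were 280, 372, 403 and 348 CPM at 0 h, 240 and 257 CPM at 12 h, 253 and 267 CPM at 24 h and 432.5 and 441.1 CPM at 48 h. The libraries of 12 and 24 h lay below all of 0 h and those of 48 h above all, with log2 changes of -0.44 ± 0.12 (adjusted p = 0.032), -0.37 ± 0.12 (adjusted p = 0.0347) and 0.38 ± 0.12 (adjusted p = 0.0179). Omitting replicate 1 of 48 h or of 0 h ended the 48 h call (adjusted p up to 0.326). The 12 h call ended without any of 6 libraries (both of 6 and of 12 h, replicate 1 of 48 h and replicate 2 of 0 h) and the 24 h call without any of 7 (both of 6, 12 and 24 h and replicate 2 of 0 h), at adjusted p up to 0.339 and 0.249.

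Ctsc, which activates serine proteases of immune cells, was erratic at 0 h, at 5.86, 16.9, 42.7 and 13.2 CPM. It stood at 4.15 and 7.1 CPM at 24 h and at 23.0 and 43.0 CPM at 48 h, and both times overlapped the 0 h range. Its calls at 24 h (-1.41 ± 0.48, adjusted p = 0.0477) and 48 h (1.15 ± 0.41, adjusted p = 0.0358) were fragile. The 24 h call ended on omitting any of the 8 RA libraries (adjusted p up to 0.376). The 48 h call ended on omitting any of 10 libraries (all RA libraries but replicate 1 of 6 h, and replicates 1, 2 and 4 of 0 h), at adjusted p up to 0.206. Between 24 and 48 h, where the groups did not overlap, it rose by 2.56 ± 0.52 (adjusted p = 0.0092), which ended on omitting either 24 h library or replicate 1 of 48 h (adjusted p up to 0.0849). Ctsh, an aminopeptidase, was close to silent, with 3 counts over the 4 libraries of 0 h and 33 over the 2 of 48 h, a count ratio of 18.8 (95% interval 5.9 to 95.8, counting error only).

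Glycosidases did not all pass the test against 0 h at 48 h. Of 10 tested, 6 rose, 0 fell and 4 (Glb1, Man2b1, Manba and Fuca1) were not called. Naglu, which removes N-acetylglucosamine from heparan sulfate, stood at 4.81, 3.82, 1.48 and 2.24 CPM at 0 h, 16.5 and 6.58 CPM at 24 h and 23.0 and 15.4 CPM at 48 h. No library of 24 or 48 h reached down to the 0 h range, and the log2 change was 1.61 ± 0.31 at 24 h (adjusted p = 0.00182) and 2.44 ± 0.30 at 48 h (adjusted p = 1.93e-05). Gaa, the enzyme that digests glycogen in the lysosome, fell at 12 h by 0.49 ± 0.14 on the log2 scale, where the groups overlapped, and then rose. The 12 h call ended on omitting any of 7 libraries (both of 6 and of 12 h, replicate 1 of 48 h and replicates 2 and 4 of 0 h), at adjusted p up to 0.353. Its levels were 39.1, 36.1, 29.7 and 33.6 CPM at 0 h, 30.8 and 22.1 CPM at 12 h, 61.8 and 50.9 CPM at 24 h and 139 and 112 CPM at 48 h, a change of 1.77 ± 0.13 at 48 h (adjusted p = 1.49e-07).

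Hexa, a subunit of the hexosaminidase that degrades gangliosides, went from 20.8 to 36.3 CPM at 0 h to 111 and 109 CPM at 48 h (1.85 ± 0.17), without overlap. Gusb, which removes glucuronic acid from glycosaminoglycans, rose by 1.70 ± 0.20, and Neu1, a sialidase, by 1.32 ± 0.17, both also called at 24 h, Gusb not without replicate 2 of 24 h (adjusted p = 0.095). Gla, an alpha-galactosidase, rose by 0.67 ± 0.16, and omitting replicate 1 of 48 h gave an adjusted p of 0.0756. Among the genes without a call at 48 h against 0 h were Man2b1 (0.18 ± 0.17) and Manba (-0.20 ± 0.18), the alpha- and beta-mannosidases, and Fuca1 (0.27 ± 0.13), a fucosidase. Fuca1 was called higher against DMSO at 48 h (0.64 ± 0.20), a call that ended on omitting replicate 1 of 48 h. Man2b1 was called lower at 24 h (-0.49 ± 0.17, adjusted p = 0.044) with overlapping groups, and the call ended on omitting any of 9 libraries (all RA libraries but replicate 2 of 48 h, and replicates 2 and 4 of 0 h), at adjusted p up to 0.155.

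Glb1, the lysosomal beta-galactosidase, had its peak at the first time point. It stood at 33.8, 31.3, 51.7 and 48.2 CPM at 0 h, at 73.9 and 71.1 CPM at 6 h, at 54.8 and 58.8 CPM at 12 h, and at 49.35 and 38.15 CPM at 48 h. Both 6 h libraries exceeded every other library, and the change of 0.79 ± 0.22 was called (adjusted p = 0.0481) but ended on omitting any of 8 libraries (both of 6, 12 and 48 h, and replicates 1 and 2 of 0 h), at adjusted p up to 0.51. By 48 h the change was 0.05 ± 0.22. At 12 h it was not called (0.44 ± 0.22). It was called in the fit with the replicate number as a block (0.80, adjusted p = 0.0101), which uses replicates 1 and 2 alone and so leaves out replicates 3 and 4 of 0 h, at 51.7 and 48.2 CPM.

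All 9 genes of lipid breakdown and transfer and their cofactors rose at 48 h, by 0.59 to 2.57. Psap, the precursor of the saposins that present sphingolipids to their hydrolases, rose at every RA time. Its libraries held 296, 219, 179 and 210 CPM at 0 h, 375 and 310 CPM at 6 h, 369 and 315 CPM at 12 h, 561 and 408 CPM at 24 h and 636 and 440 CPM at 48 h. Every RA library lay above every 0 h library. So did both DMSO libraries, at 303 CPM (24 h) and 333 CPM (48 h). That of 48 h was also above replicate 2 of 6 h and of 12 h of RA, which lie in the other library set. Within set 1, which holds both DMSO libraries, the RA libraries of 6 and 12 h (375 and 369 CPM) stood above them. DMSO against 0 h was not called for Psap (0.19 ± 0.13). The change was 0.51 ± 0.12 at 6 h (adjusted p = 0.0203, ended by omitting either 6 h library, adjusted p up to 0.55), 0.51 ± 0.12 at 12 h (adjusted p = 0.0126, ended by omitting replicate 2 of 12 h, adjusted p = 0.3), 1.00 ± 0.12 at 24 h and 1.14 ± 0.12 at 48 h. From 24 to 48 h it was 0.15 ± 0.14 (not called). In the replicate block fit, without replicates 3 and 4 of 0 h, the 6 h change was not called (0.41, adjusted p = 0.0764).

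Asah1, the acid ceramidase, moved mostly after 24 h, from 121 to 149 CPM at 0 h to 142 and 207 CPM at 24 h and 366 and 319 CPM at 48 h (1.39 ± 0.14, adjusted p = 3.34e-06). Its 24 h value of 0.39 ± 0.14 was called at an adjusted p of 0.0499 with overlapping groups and ended on omitting any of 9 libraries (all of 0, 6 and 12 h, and replicate 2 of 24 h), at adjusted p up to 0.563. Galc, which removes galactose from ceramide, rose by 1.90 ± 0.24 and Smpd1, the acid sphingomyelinase, by 1.60 ± 0.20. Smpd1 was also called at 24 h (0.69 ± 0.20), but not without replicate 1 or 2 of 24 h or of 0 h (adjusted p up to 0.0877). Grn, a precursor of granulins that supports lysosomal function, rose at 24 h (0.71 ± 0.12) and at 48 h (1.28 ± 0.12). Npc1 and Npc2, which pass cholesterol out of the lysosome, rose by 0.91 ± 0.15 and 0.62 ± 0.12, and Npc2 had fallen at 12 h by 0.45 ± 0.13 on the log2 scale, a call that ended on omitting any of 7 libraries (both of 6, 12 and 48 h and replicate 4 of 0 h, adjusted p up to 0.307). Ppt1, which removes palmitate from proteins, rose by 0.59 ± 0.13, with an adjusted p of 0.0734 if replicate 1 of 48 h is omitted. Lipa, which hydrolyses cholesterol esters, was barely detected, with 6 counts over 0 h and 20 over 48 h (count ratio 5.7, interval 2.21 to 17.3, adjusted p up to 0.268 on omitting replicate 2 of 0 h or of 48 h).

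**Figure D2:**
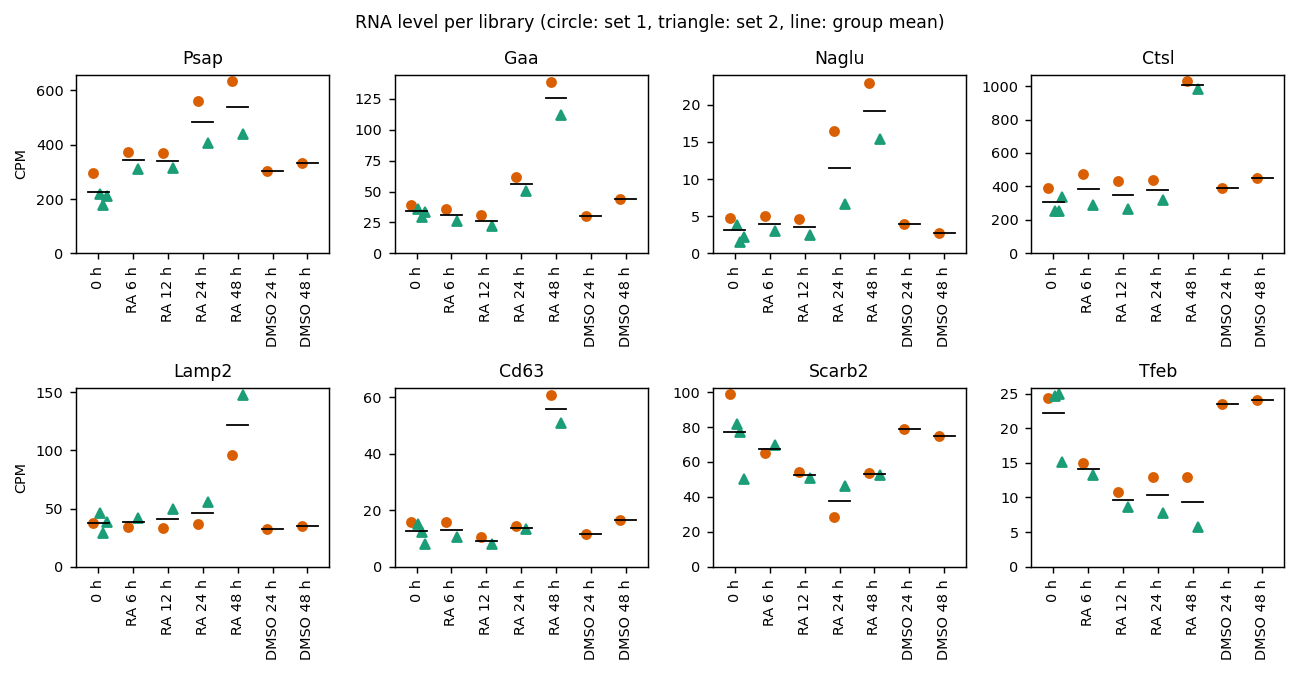
CPM of 8 lysosomal genes in each mRNA library by group, with circles for library set 1, triangles for set 2 and a line at the group mean; each vertical axis starts at 0. Under RA, Psap is above 0 h from 6 h on, Gaa and Naglu from 24 h, and Ctsl, Lamp2 and Cd63 at 48 h. Both DMSO libraries of Psap and of Ctsl also lie above 0 h. Scarb2 is lowest at 24 h, and Tfeb is lower throughout RA treatment and near 24 CPM in DMSO.

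Membrane proteins rose at 48 h in 5 of 6 cases. Cd63, a tetraspanin of late endosomes and exosomes, stood at 15.94, 15, 12.23 and 7.981 CPM at 0 h, 14.3 and 13.2 CPM at 24 h and 60.6 and 50.8 CPM at 48 h. Its 24 h libraries lay inside the 0 h range and its 48 h libraries far outside, with changes of 0.03 ± 0.23 and 2.04 ± 0.21 (adjusted p = 3.97e-06) and a step of 2.01 ± 0.25 between them (adjusted p = 0.00038). Lamp2, needed for fusion of autophagosomes with lysosomes, went from 37.1, 46.3, 29.2 and 38.6 CPM at 0 h to 96.0 and 148 CPM at 48 h (1.76 ± 0.18, adjusted p = 3.19e-06). Lamp1, its close relative and the member with the E-box chain, changed less. Its levels were 925.7, 906.1, 883.3 and 974.8 CPM at 0 h and 1275 and 1296 CPM at 48 h, which do not overlap and give 0.47 ± 0.11 (adjusted p = 0.00249). Laptm4a, a small transmembrane protein of late endosomes, rose by 0.68 ± 0.11, and Mcoln1, a calcium-conducting channel, by 0.51 ± 0.13. Mcoln1 had an adjusted p of 0.0739 once replicate 1 of 48 h was omitted.

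Scarb2, the receptor that carries glucocerebrosidase to the lysosome, went the other way. It stood at 98.9, 81.9, 77.0 and 50.2 CPM at 0 h, 28.4 and 46.3 CPM at 24 h and 53.8 and 52.4 CPM at 48 h. The 24 h libraries lay below all of 0 h (-1.04 ± 0.24, adjusted p = 0.00658, or 0.0846 with replicate 1 of 24 h omitted). The 48 h libraries overlapped the 0 h range (-0.54 ± 0.24, adjusted p = 0.0765). In the replicate block fit, without replicates 3 and 4 of 0 h, Scarb2 was called lower at 12 h (-0.80, adjusted p = 0.0221) and at 48 h (-0.76, adjusted p = 0.00695).

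Of the 3 proton pump genes, Atp6ap1, an accessory subunit, went from 69.7 to 82.5 CPM at 0 h to 144 and 145 CPM at 48 h (0.93 ± 0.13), and Atp6v0d1, which couples the cytosolic and membrane parts, rose by 0.50 ± 0.12. For Atp6v0d1 the adjusted p was 0.0835 once replicate 1 of 48 h was omitted. Atp6v1h, a regulatory subunit of the cytosolic part, had 81.4 and 114 CPM at 48 h against 90.7 to 114 CPM at 0 h (-0.02 ± 0.13). Of 13 other pump subunits 4 rose at 48 h and 0 fell, with a median change of 0.25. Over all tested genes 25.8% were called higher and 22.9% lower. Atp6v0a1, a membrane subunit, changed most among the called subunits (1.04 ± 0.11). Against DMSO at 48 h 2 of the 13 were higher and 0 lower, where 12.6% of all genes were called higher and 11.5% lower.

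Tfeb, the transcription factor known for activating lysosomal genes, was the only member that fell at 48 h. It stood at 24.4, 24.7, 24.9 and 15.1 CPM at 0 h, 15.04 and 13.31 CPM at 6 h, 10.7 and 8.60 CPM at 12 h, 12.9 and 7.70 CPM at 24 h and 12.9 and 5.76 CPM at 48 h, and at 23.5 and 24.1 CPM in DMSO at 24 and 48 h. Every RA library lay below every 0 h and DMSO library. The 6 h change of -0.77 ± 0.26 was not called, and Tfeb fell by 1.33 ± 0.28 on the log2 scale at 12 h (adjusted p = 0.00627), by 1.27 ± 0.27 at 24 h (adjusted p = 0.00352) and by 1.44 ± 0.28 at 48 h (adjusted p = 0.000767). The 12 h call ended on omitting either 12 h library (adjusted p up to 0.0995), the 24 h call on omitting replicate 2 of 24 h (adjusted p = 0.061) and the 48 h call on omitting replicate 2 of 48 h (adjusted p = 0.0511).

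Its relatives did not move as a group. Tfe3 fell already at 6 h (-0.52 ± 0.12) and stood at -0.99 ± 0.12 at 48 h, from 150 ± 9.04 CPM (SD, n = 4) to 75.4 ± 9.15 CPM (n = 2). Mitf was called lower at 24 h (-0.98 ± 0.33, adjusted p = 0.0404) but not at 48 h (-0.55 ± 0.33). Tfec rose instead, from 5 counts over the 0 h libraries and 1 over the 24 h libraries to 194 over the 48 h libraries, a count ratio of 66.3 against 0 h (interval 27.9 to 207). Against DMSO at 48 h, where Tfec had 7 counts, the change was not called (adjusted p = 0.0654). Rragd, a small GTPase that links nutrients and Tfeb family factors, fell at 6 h (-1.59 ± 0.33) and rose at 48 h (2.57 ± 0.26). In all, 4 of 16 genes of these factors and of nutrient sensing rose at 48 h and 4 fell, with a median of -0.01. These shares are near those of all tested genes, 25.8% higher and 22.9% lower. Against DMSO at 48 h 1 of the 16 was higher and 1 lower.

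The changes of members with and without the E-box are given side by side, without a test. Of the 10 with CACGTG in the promoter window 9 were called higher at 48 h, with a median change of 0.59, and of the 22 tested members whose window lacks it 17 were, with a median of 1.15. The 5 with TCACGTGA (Ctsa, Ctsd, Mcoln1, Atp6v0d1 and Gla) all rose against 0 h, by 0.38 to 0.91. Against DMSO at 48 h these 5 were not called, with changes of 0.22 to 0.45. Of the 5 whose boxes have other flanks, Naglu, Gaa and Ctsl rose against 0 h by 2.44, 1.77 and 1.61. Lamp1 rose by 0.47 and Glb1 was not called (0.05). Naglu, Gaa and Ctsl were also called higher against DMSO at 48 h. Lamp1 just missed the threshold there (0.45 ± 0.16, adjusted p = 0.0509), and Glb1 was not called (0.01 ± 0.32).

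**Figure D3:**
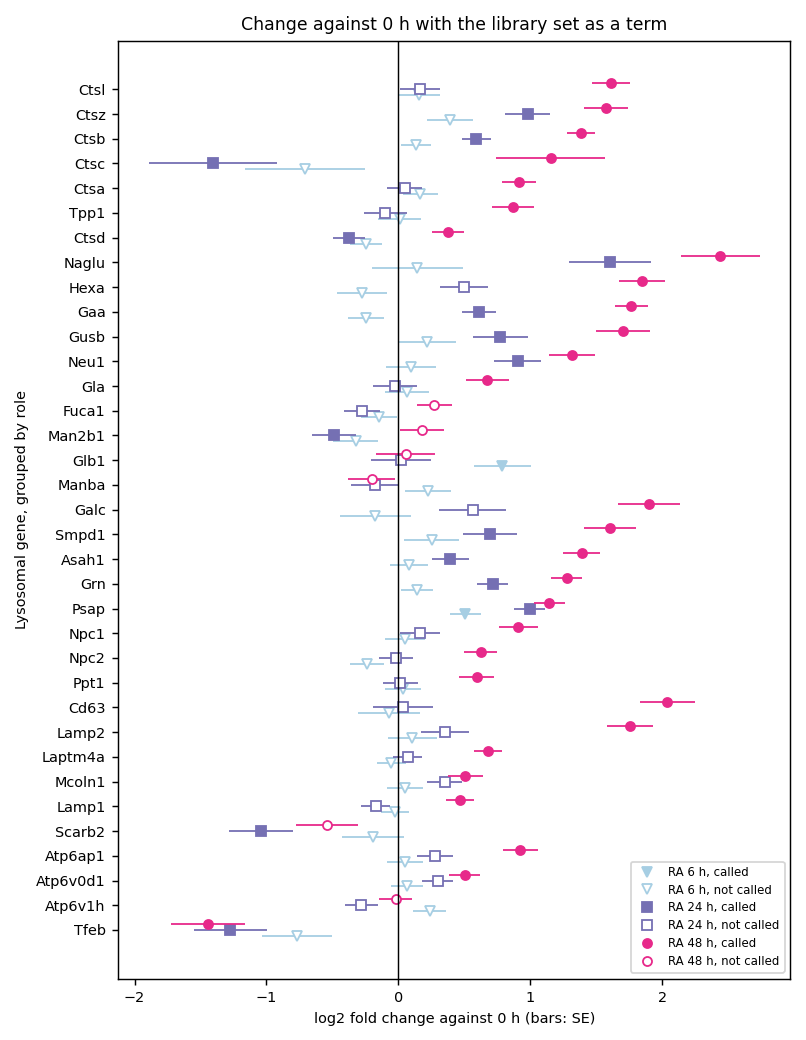
Log2 fold change against 0 h at 6, 24 and 48 h of RA (triangles, squares and circles) with SE bars for 35 lysosomal genes, filled where called at an adjusted p under 0.05; Ctsh and Lipa are left out for their few counts. The 48 h circles lie to the right of the 24 h squares for most genes, and Scarb2 and Tfeb lie left of 0 at both times.

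The comparison with solvent asks whether time in culture gives the same change. Averaged over 24 and 48 h of DMSO, 0 of 37 members were called against 0 h, as were 0% of all genes, and 3 members had an unadjusted p under 0.05. Both DMSO libraries lie in set 1, which holds 1 library of 0 h. The lack of calls therefore does not show that levels in DMSO and at 0 h were alike. The median change was 0.10. DESeq2 likewise called 0 members and 6 of all genes. Against DMSO at 48 h 20 members were higher after RA (54.1%), 1 was lower and 16 were not called, where 24.1% of all genes were called, 12.6% higher and 11.5% lower. Of the 30 genes higher against 0 h, 19 were also higher against DMSO. Both comparisons share the RA libraries. Cd63 stood at 16.5 CPM in the 48 h DMSO library, a change of 1.93 ± 0.34 under RA (adjusted p = 0.00129). Ctsl stood at 451 CPM in DMSO (1.42 ± 0.24), Gaa at 43.8 CPM (1.68 ± 0.20), Naglu at 2.72 CPM (3.24 ± 0.52) and Lamp2 at 35.1 CPM (1.57 ± 0.28). Tfeb was the gene that was lower (-1.20 ± 0.36, adjusted p = 0.0275, up to 0.151 on omitting replicate 2 of 6 or 48 h).

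Of the 30 genes, 11 were not called against DMSO at 48 h. For Ctsa, Npc2, Gla and Mcoln1 among them, the level in the 48 h DMSO library was itself above the 0 h range. Ctsa stood at 119 CPM in that library and 56.5 to 73.1 CPM at 0 h (RA against DMSO 0.42 ± 0.19). Npc2 stood at 228 CPM against 121 to 162 CPM at 0 h (RA against DMSO 0.23 ± 0.18). Gla stood at 30.9 CPM against 18.9 to 24.7 CPM, and Mcoln1 at 42.1 CPM against 28.2 to 34.7 CPM. Some members called against DMSO were also above the 0 h range there, such as Grn (152 against at most 104 CPM) and Hexa (49.8 against at most 36.3 CPM). Others were not, such as Lamp2 (35.1 against 29.2 to 46.3 CPM). At 24 h 5 members were higher than in DMSO (13.5%) and 0 lower, where 10.4% of all genes were called, 5.83% higher and 4.61% lower. They were Gaa (1.06 ± 0.20), Naglu (1.88 ± 0.49), Psap (0.87 ± 0.18), Ctsb (0.68 ± 0.16) and Grn (0.61 ± 0.18). Ctsb and Naglu were not called without replicate 1 of 24 h, and Grn without any of 9 libraries (all RA libraries and replicate 2 of 0 h, adjusted p up to 0.128). Each DMSO time has 1 library, which was assumed to vary like the other groups. Without replicate 1 of 48 h, 12 members were called against DMSO at 48 h instead of 21, and without the set term 8. Without replicate 1 of 24 h, 2 were called at 24 h instead of 5, and without the set term 0.

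**Figure D4:**
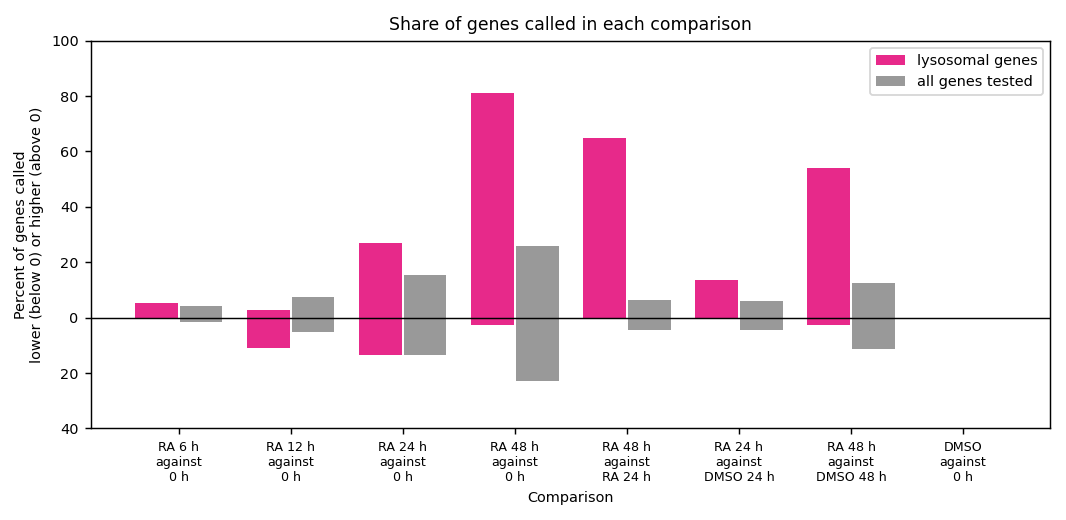
Percent of genes called higher (above 0) or lower (below 0) in each comparison, for the 37 tested lysosomal genes (pink) and all 16155 tested genes (grey). At 48 h against 0 h the bars for higher genes stand at 81.1% and 25.8%, and for DMSO against 0 h none is called.

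Genes outside the 38 were examined as lists. Of 25 tested other lysosomal hydrolases and cofactors 21 rose at 48 h, 0 fell and the median change was 1.22, with 12 higher already at 24 h. By size of change these were led by the mannosidase Man2b2 (30 counts at 48 h against 6 at 0 h, ratio 8.55, interval 3.5 to 25.1), the cysteine protease Ctso (20 against 3, ratio 11.4, interval 3.38 to 59.9) and the sulfatase Arsb (2.86 ± 0.47). Lgmn, an asparaginyl protease of the same list picked after its values were seen, rose by 2.76 ± 0.15. Of 14 other membrane proteins and transporters 6 rose and 2 fell (median 0.44), among them the channel gene Tpcn1 (1.98 ± 0.12, from 25.7 ± 4.95 to 109 ± 16.8 CPM) and Slc17a5, an exporter of sialic acid (1.34 ± 0.29). Mcoln3 was called too (2.12 ± 0.72), with 30 counts against 17. Against DMSO at 48 h, 12 of the 25 hydrolases and cofactors were higher and 0 lower (median 1.08). Of the 14 membrane proteins and transporters 1 was higher and 2 were lower (median 0.24). In that comparison 12.6% of all genes were called higher and 11.5% lower.

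Delivery genes moved less. Of 16 genes of sorting and fusion 4 rose and 2 fell at 48 h with a median of 0.02. Igf2r, the large mannose 6-phosphate receptor, rose from 44.0 ± 5.32 to 132 ± 3.03 CPM (1.61 ± 0.14, adjusted p = 8.17e-07), Sort1, another sorting receptor, by 1.33 ± 0.29 and Gnptab, which starts the mannose 6-phosphate tag, by 0.69 ± 0.15. Of 14 autophagy genes 5 rose and 1 fell at 48 h (median 0.04), led by Wipi1 (2.44 ± 0.31), Gabarap (1.08 ± 0.14) and the cargo receptor Sqstm1 (0.98 ± 0.12). At 24 h 7 of the 14 were higher and 1 was lower (median 0.25), where 15.5% of all genes were called higher and 13.5% lower. At 48 h these lists are read against the 25.8% of all genes called higher and the 22.9% called lower. Against DMSO at 48 h, 1 of the 16 sorting and fusion genes was higher and 1 lower. Of the 14 autophagy genes 3 were higher and 0 lower, where 12.6% of all genes were called higher and 11.5% lower.

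Markers of other cells were checked beside these changes. Of 6 macrophage markers, Adgre1 and Tyrobp had 0 counts in all libraries, Aif1 had 1 and Ptprc 4, while Csf1r stood at 13.7 to 23.2 CPM and Cd68 at 4.01 to 11.8 CPM. Their sum was 23.2 to 34.9 CPM at 0 h and 19.2 to 22.7 CPM at 48 h. Of 5 fibroblast markers Col1a2 and Col3a1 stayed below 1 CPM, Thy1 fell (-4.08 ± 0.47) and Pdgfra, which primitive endoderm also expresses, rose (5.53 ± 0.48), as did Col1a1 (2.62 ± 0.65), which reached 2.87 CPM at most. The sum was 11.6 to 29.7 CPM at 0 h and 58.8 to 109 CPM at 48 h. The endoderm markers rose with the lysosomal genes, 8 of 8 at 48 h with a median of 5.42, and their part in the result was not tested. Of the 30 members higher at 48 h, 26 were also called without the set term (not Ctsc, Ctsd, Lipa and Ppt1), and 23 were called whichever library was left out. All 31 called members had the same sign within set 1 and within set 2. The fit with the replicate number as a block held 10 libraries, without replicates 3 and 4 of 0 h and the DMSO libraries. Among these the number divides the libraries as the set does, so that fit differs from the main one in the libraries it holds. In it Fuca1 was called higher at 48 h as well (0.36, adjusted p = 0.0466). Calls ended there were those of Asah1 and Man2b1 at 24 h (adjusted p = 0.106 and 0.0914), of Npc2 at 12 h (0.112) and of Ctsd at 12 and 24 h (0.0677 and 0.0691). Calls gained there were those of Hexa and Cd63 as lower at 12 h (adjusted p = 0.0203 and 0.0277), of Atp6v0d1 as higher at 24 h (0.026), and of Ctsz and Naglu as higher from 24 to 48 h (0.0247 and 0.0445).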

How the data were processed

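RNA-seq libraries were made from total RNA with an Illumina TruSeq kit and read as single ends of 72 or 50 bp, per the labels' protocols; the read length of each library is not given. For each library a table of unnormalized counts for Ensembl genes was deposited. TopHat2 2.0.7, HTSeq and build mm9 are named in the submitters' processing notes, with no options or strand setting given, so reads of a gene and of an antisense or overlapping neighbour cannot be told apart. The 5 closing entries for reads given to no gene, 72.52 to 76.78% of each table, were left out. Symbols came from a later mouse annotation, and all members matched.

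The fit was edgeR's quasi-likelihood model (edgeR 4.0.16, R 4.3.3) of 14 libraries with 1 term per group and 1 for library set, TMM factors (0.9291 to 1.095), robust estimation and edgeR's filter by group, which kept 16155 genes. P-values are two-sided F-tests. The SE is the absolute log2 change over the square root of F. Sets were split at the widest gap in the share of reads on no feature. Members, lists and the term were chosen with earlier results of these data known. Named are all members and, per list, up to 3 called genes with the largest change at 48 h; Mitf and Lgmn were added after their values were seen. Within-set differences used a pseudocount of 0.5 CPM. The difference of replicate 1 from replicate 2 within a group correlated between groups (r from 0.66 to 0.792 over 10 pairs of groups). Replicate 1 always lay in set 1 and replicate 2 in set 2, so the numbers mark the same split as the sets. A difference between the sets alone could give this correlation, which therefore cannot show whether libraries of equal number belong together. The fit was tested on simulated data. Intervals and floors cover counting error only. DESeq2 1.42.0, RLE, other filters, the replicate block, set 2 alone, no set term and each library left out were tried. Plots were drawn with matplotlib 3.10.9. Region files were not used, because no mm9 gene positions were used here.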

Additional observations from a re-analysis of the deposited data

Results flagged for a closer look

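Among 37 members with counts at 0 h, 2 had a 0 h library far from the other 3 by Dixon's criterion, where chance gives about 1 in 20. Tfeb stood at 15.1 CPM in replicate 4 of 0 h and at 24.4 to 24.9 CPM in the other libraries. Ctsh had 0 CPM in replicate 1 of 0 h, the set 1 library, and 0.0932 to 0.105 CPM in the others, which is 1 count each. For the difference of the RA effect against DMSO between 48 and 24 h, edgeR's test, added after the data were seen, called 0 members, with 10 at an unadjusted p under 0.05. The lowest adjusted p was that of Ctsl (0.185), at a log2 difference of 1.25 ± 0.30, and Cd63 (1.497 ± 0.455) and Lamp2 (1.30 ± 0.38) were among the 10. The fit gave a usable SE for 35 members and none for Ctsh and Lipa, which had 0 counts in DMSO. A missing call does not show that the effects were alike.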

How the results depend on the processing

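No member reversed its sign in a called comparison under any alternative, and for 48 h against 0 h the count of 31 called members stayed within 1.5 times (25 to 32). Without the set term 0 members were called at 6 h, 0 at 12 h, 8 at 24 h, 2 for 48 against 24 h, 0 against DMSO at 24 h and 8 against DMSO at 48 h. Set 2 alone, with 1 library per RA time, gave 0, 0, 6 and, for 48 against 24 h, 1. At 6 h RLE, the filter of 1 CPM in 4 libraries and the replicate block each called 1. The replicate block fit, which leaves out replicates 3 and 4 of 0 h and the DMSO libraries, gave 7, 13, 32 and 26 calls at 12, 24 and 48 h and for 48 against 24 h and so changed no other count by over 1.5 times. Leaving out each library gave 0 to 2 members at 6 h, 0 to 6 at 12 h (0 without replicate 2 of 12 h), 10 to 15 at 24 h, 25 to 31 at 48 h, 8 to 25 for 48 against 24 h (8 without replicate 1 of 48 h), 2 to 8 against DMSO at 24 h, 12 to 23 against DMSO at 48 h and 0 for DMSO against 0 h. Counts over all genes moved too: without the set term 268, 444, 1993, 4766, 114, 305 and 1286 genes were called at 6, 12, 24 and 48 h, for 48 against 24 h and against DMSO at 24 and 48 h, in place of 906, 2050, 4689, 7881, 1781, 1687 and 3892. Set 2 alone called 271, 481, 1677, 5146 and 179 in the first 5 of these. Causes were not tested. Depth limits Ctsh, Lipa and Ctss.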
